A study of Mus musculus with 6 samples.

Results

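The genes of MHC class II presentation described here are 6 of the 18193 genes measured in macrophages of the injured dorsal root ganglion (DRG), and they were read by 14 of 45037 probe sets. They are the class II chains H2-Aa, H2-Ab1 and H2-Eb1, the peptide loader H2-DMa, the invariant chain Cd74 and the class II transactivator Ciita. Every probe set that the platform annotation gave to 1 of these genes alone was taken, and none was dropped for its level. The genes themselves were chosen by their known role and with the measured genotype differences of H2-Aa and H2-DMa already in view, so the differences between genotypes below, and the calls at a threshold, only describe these arrays and support no finding. Macrophages (F4/80+ CD11b+) were sorted from pooled L4/L5 DRG ipsilateral to a spared nerve injury (SNI) made 7 days earlier, an operation that cuts branches of the sciatic nerve and leaves 1 branch intact. There were 3 arrays of WT littermates and 3 of miR-21 cKO mice, all from males of 8 to 10 weeks, and all mice of both groups had SNI. The miR-21 cKO mice carried a conditional miR-21 allele deleted by Avil-Cre, a driver active in sensory neurons, so the gene was not targeted in the sorted cells themselves. The arrays of each group were independently collected pools, and neither the labels nor the methods say how many mice made up a pool. Each group is a mixture of sorted cells, in which fewer cells of a type and less RNA per cell cannot be told apart.

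MHC class II molecules are pairs of an alpha and a beta chain that hold peptides from engulfed material and show them to CD4+ T cells. The chains assemble in the endoplasmic reticulum with the invariant chain, which guides them to endosomes and fills their groove until H2-DM, itself a pair of chains, exchanges the last fragment of it for a peptide. The whole set is switched on by Ciita, a coactivator that does not bind DNA but sits on the factors bound at the X and Y boxes of class II promoters, and in macrophages Ciita is induced by interferon-gamma. In the mouse, H2-Aa and H2-Ab1 encode the chains of I-A, and H2-Eb1 the beta chain of I-E.

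The study's manipulation was of miR-21, which is made as mmu-miR-21a-5p from the minus strand of chromosome 11 (GRCm38.p6, chr11:86584120-86584141). Its sequence is shown because the seed decides which transcripts it pairs with. The capitals mark bases 2 to 8, the seed.
mmu-miR-21a-5p: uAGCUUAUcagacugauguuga
The mature miRNA was not measured by these arrays, which read longer transcripts, so they hold no check of the genotype labels. The promoter stretches below, from 2 of the 6 genes and 3 other class II genes, are shown because Ciita is known to act through the X and Y boxes. They come from RefSeq windows of 300 bases, 250 before and 50 after the gene start (GRCm38.p6), and run 5′ to 3′ on the strand of the gene. The capitals mark GCAAC, letters of the X box, and TGATTGG, the Y box as an inverted CCAAT. These letters were chosen after the windows had been seen.
H2-Aa (minus strand, chr17:34287864-34287907): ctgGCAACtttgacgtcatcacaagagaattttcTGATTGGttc
H2-Eb1 (plus strand, chr17:34305773-34305815): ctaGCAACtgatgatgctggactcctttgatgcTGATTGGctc
H2-Eb2 (plus strand, chr17:34325540-34325582): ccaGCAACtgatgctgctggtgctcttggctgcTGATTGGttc
H2-Oa (plus strand, chr17:34092300-34092343): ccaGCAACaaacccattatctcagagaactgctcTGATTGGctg
H2-Ob (plus strand, chr17:34238815-34238855): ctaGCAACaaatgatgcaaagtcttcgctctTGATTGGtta
The starts of both motifs lay 31 bases apart in H2-Aa and H2-Oa, 30 in H2-Eb1 and H2-Eb2, and 28 in H2-Ob. Of all 32851 windows, 35.2% held GCAAC and 7.82% held TGATTGG on either strand, and 69 windows or 0.21% held GCAAC followed on the gene's strand by TGATTGG within 50 bases. The windows of H2-DMa, H2-DMb1 and H2-DMb2 did not hold the pair in these letters, and no window was read for H2-Ab1, Cd74 or Ciita.

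Signals below are MAS5 signals in linear units, scaled by the authors to the same trimmed mean on every array, which was 497.8 to 498.4 in the deposited columns. The files give no detection calls, so the 95th percentile of 47 probe sets of olfactory receptors (Olfr), whose main place of expression is the olfactory epithelium, served as background. It was taken from their mean log2 signals over the 6 arrays and lay at a signal of 1036.7. Single arrays vary more than means, and on each array 16.4% to 18.5% of all probe sets were above it, so 1 or 2 arrays above background show little. Of the class II probe sets 6 of 14 (42.9%) had a mean above it, against 4.95% of all probe sets. Above it on all 6 arrays was 1 class II probe set, and on no array were 5. A difference is miR-21 cKO minus WT on the log2 scale from limma, with the standard error (SE) that limma takes from the spread of probe sets of like brightness. The SE from the probe set's own 3 and 3 arrays is given as a second value where they differ much. A probe set was called where p was under 0.05 without adjustment and the change at least 2-fold, thresholds taken from the array methods.

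Of the 14 class II probe sets 1 was called higher and 2 were called lower in the miR-21 cKO, and 11 were not called. That is 21.4% of them, beside 4.51% of all probe sets called, 2.11% higher and 2.4% lower, and as the genotype contrast had helped to choose the genes nothing is read from the excess. The adjusted p was under 0.05 for 1 class II probe set, of H2-Aa, and for 0.0222% of all probe sets. For that H2-Aa probe set this depended on the processing, as given in the last section. Groups did not overlap in 3 class II probe sets, or 21.4%, beside 9.81% of all. The differences had no common sign, with 7 above and 7 below 0. Their median was 0.00 on the log2 scale, beside -0.03 over all probe sets, and the median size without sign was 0.81, beside 0.86.

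**Figure D1:**
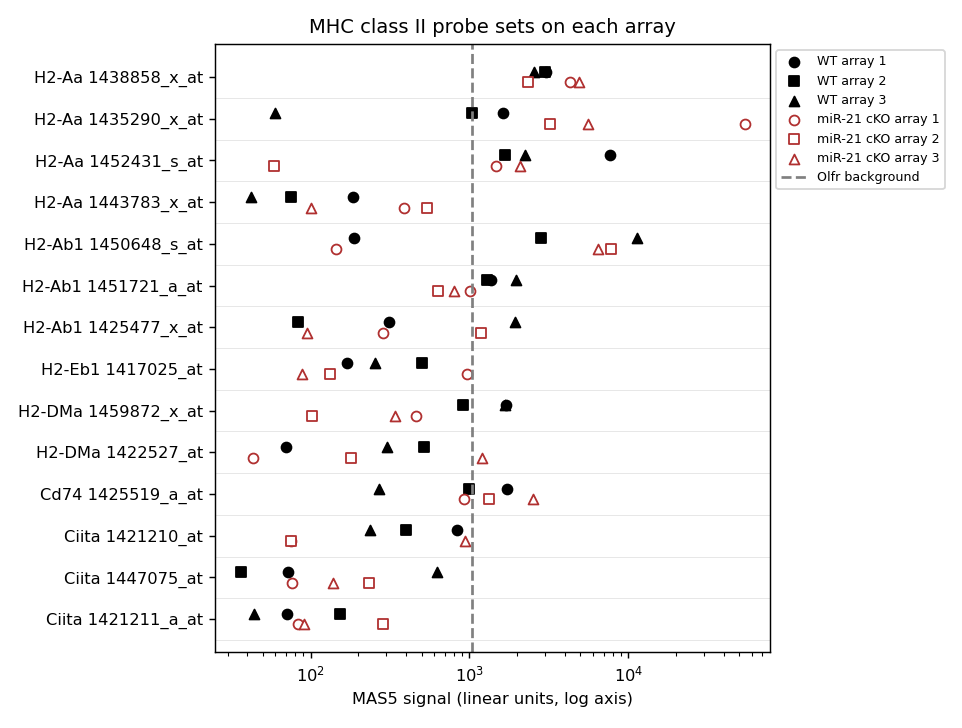
MAS5 signal (log axis) of the 14 class II probe sets on each of the 6 arrays, with filled black marks for WT, open red marks for miR-21 cKO, a shape for each array number, and the Olfr background of 1036.7 as a dashed line. H2-Aa 1438858_x_at is right of the line on all 6 arrays, and H2-Aa 1435290_x_at spreads from 59.3 to 54253.

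H2-Aa, the alpha chain of I-A, was read by 4 probe sets, and they gave different pictures of the same gene. Probe set 1438858_x_at had signals of 3033, 2988 and 2546 in WT and 4309, 2342 and 4923 in miR-21 cKO. All 6 values were above background and the genotypes overlapped, since cKO array 2 was the lowest of all. The difference was 0.37 (SE 0.67), or 1.29-fold, and the highest array was 2.10 times the lowest, the narrowest range of any class II probe set.

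Probe set 1435290_x_at of H2-Aa read 1629, 1039 and 59.3 in WT and 54253, 3196 and 5546 in miR-21 cKO. Every cKO array was above every WT array, but WT array 3 was far below the other WT arrays and cKO array 1 far above everything else. The difference was 4.41 on the log2 scale (21.2-fold), with an SE of 0.77 from the trend and 1.95 from the probe set's own arrays. The methods name Student's t test for pairs of groups in general, and no test for the arrays. By that t test, run on the same 3 and 3 log2 values, the probe set was not called. With signals under the background raised to it, the ratio was 8.18-fold. Without WT array 3 the difference was 2.92, and without cKO array 1 it was 3.18, and in neither case was the adjusted p of limma still under 0.05.

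Probe set 1452431_s_at of H2-Aa went the other way, with 7628, 1675 and 2224 in WT and 1474, 59.1 and 2078 in miR-21 cKO. It was called lower, at -2.43 (SE 0.90 from the trend, 1.77 from its own arrays), though cKO array 3 lay between WT arrays 2 and 3. Without cKO array 2 the difference was -0.80 and the call was lost, and without WT array 1 it was -1.77 and also not called. With background as the lowest value the ratio was 2.08-fold. The remaining probe set, 1443783_x_at, was below background on every array, at 185, 75.0 and 42.3 on WT and 386, 540.4 and 101 on cKO arrays, with a difference of 1.72 (SE 1.48).

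None of the 4 H2-Aa probe sets has an ID without a suffix: x_at means that some of its probes resemble other sequences, and s_at that its probes are shared by several transcripts. Their log2 differences spanned 6.84, from -2.43 to 4.41. Among the 1093 genes with 4 probe sets the median span was 2.52, and 87% had differences of both signs. The span of H2-Aa is made of the differences with which the gene was chosen, so nothing is read from its size.

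H2-Ab1, the beta chain that pairs with H2-Aa, was read by 3 probe sets, none of them called. Probe set 1450648_s_at was at 189, 2826 and 11396 in WT and 144, 7729 and 6491 in miR-21 cKO. The arrays numbered 1 were the dimmest of both genotypes, and over both genotypes the highest array was 79.3 times the lowest. The standard deviation on the log2 scale was 3.01 within WT and 3.25 within miR-21 cKO. Both far exceeded the difference between genotypes of 0.08 (SE 0.80 from the trend, 2.56 from its own arrays). The sign changed with the array left out. The difference was -1.55 without WT array 1, where it was called lower, -0.92 without cKO array 2 and -0.79 without cKO array 3, and it stayed above 0 without any of the others, up to 1.96 without cKO array 1, where it was called higher.

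Probe set 1451721_a_at, which by its suffix reads several transcripts of H2-Ab1 alone, gave 1374, 1291 and 1963 in WT and 1013, 632 and 794 in miR-21 cKO. Each WT array was above background and above each cKO array, and no cKO array was above background. The difference was -0.93 or 1.90-fold, just under the 2-fold threshold, with an SE of 0.95 from the trend and 0.27 from its own arrays, and it stayed between -1.10 and -0.74 with any array left out. With background as the lowest value the ratio was 1.46-fold. The x_at probe set, 1425477_x_at, had 314, 82.8 and 1927 on WT and 287, 1178 and 95.5 on cKO arrays, with 1 array of each genotype above background and a difference of -0.21 (SE 1.36). The 3 differences of H2-Ab1 spanned 1.01, less than the median of 2.04 among the 2366 genes with 3 probe sets.

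H2-Eb1, the beta chain of I-E, had 1 probe set, 1417025_at, and it stayed below background on all 6 arrays. It read 170, 506 and 256 in WT and 960, 133 and 88.0 in miR-21 cKO. The WT values lay inside the range of the cKO values, and the difference was -0.32 (SE 1.47).

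H2-DMa encodes the alpha chain of H2-DM, which frees the class II groove for peptides. Probe set 1459872_x_at had 1709, 906 and 1677 in WT and 458, 102 and 338 in miR-21 cKO. The genotypes did not overlap, 2 WT arrays and no cKO array were above background, and the probe set was called lower at -2.45 (SE 1.16 from the trend, 0.72 from its own arrays), 5.47-fold. By Student's t test on the log2 values it was called too, the only class II probe set that was. With background as the lowest value the ratio was 1.39-fold. The call was lost without WT array 1 (-2.29), WT array 3 (-2.31) or cKO array 2 (-1.80), each on the limma p and not on the size.

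The other probe set of H2-DMa, 1422527_at, with no suffix, read 70.3, 518 and 302 in WT and 43.4, 179 and 1195 in miR-21 cKO. The WT values lay within the range of the cKO values, only cKO array 3 was above background, and the difference was -0.08 (SE 1.50). The differences of both probe sets lay 2.37 apart, where the median of the 4695 genes with 2 probe sets was 1.21.

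Cd74, the invariant chain, is the companion of every newly made class II pair and also part of the receptor for the cytokine MIF. Its probe set 1425519_a_at gave 1711, 998 and 271 in WT and 920, 1325 and 2505 in miR-21 cKO. WT array 3 was lowest and cKO array 3 highest, while WT array 1 lay above cKO arrays 1 and 2, so the genotypes overlapped. The difference was 0.91 (SE 0.97) and went from 0.15 without WT array 3 to 1.48 without WT array 1. It was not called with any array left out.

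Ciita, the transactivator, was read by 3 probe sets, all below background on all 6 arrays. Probe set 1421210_at had 840, 401 and 236 in WT and 74.8, 75.1 and 932 in miR-21 cKO, with cKO arrays 1 and 2 below and cKO array 3 above all WT arrays. Its difference of -1.31 (SE 1.44) became -2.52 without cKO array 3 and -0.70 without cKO array 1. Probe set 1447075_at was at 72.4, 36.2 and 628 on WT and 76.0, 232 and 139 on cKO arrays (difference 0.19, SE 1.42). Probe set 1421211_a_at was at 71.5, 153 and 44.3 on WT and 82.9, 286 and 90.7 on cKO arrays (difference 0.72, SE 1.31). In all 3 the genotypes overlapped.

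**Figure D2:**
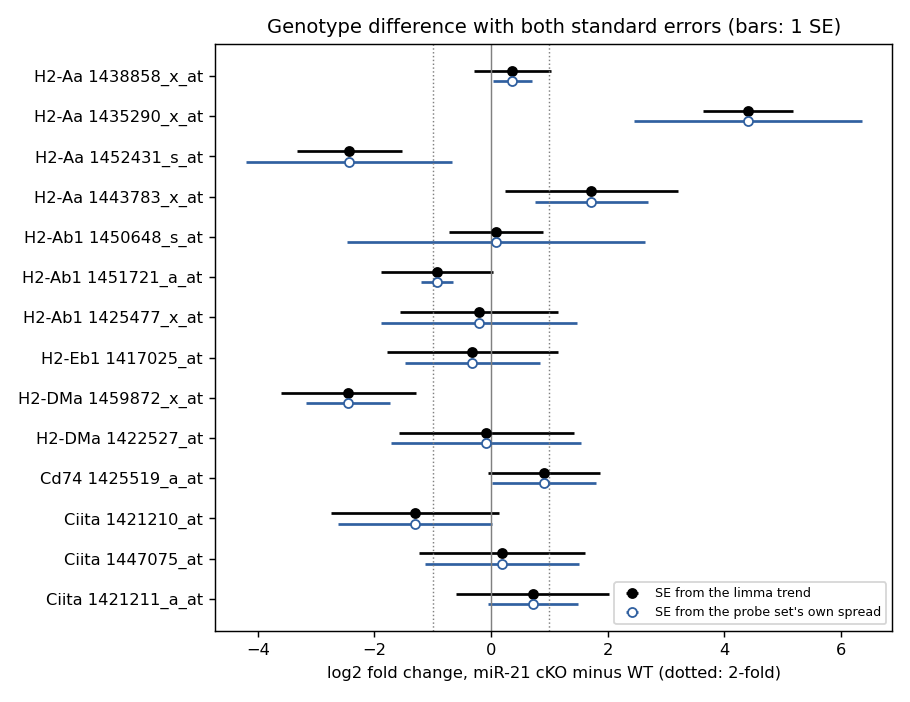
Log2 fold change, miR-21 cKO minus WT, of the 14 class II probe sets, with bars of 1 SE either side from the limma trend (filled) and from the probe set's own arrays (open), and dotted lines at 2-fold. H2-Aa probe sets lie at both ends, at 4.41 and -2.43, and for 1435290_x_at the SE is 0.77 from the trend and 1.95 from its own arrays.

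Probe sets of the same class II gene differed in their array patterns, as pairs within a gene did over all genes. With each probe set centred on its own mean log2 signal, the mean absolute difference over the 6 arrays had a median of 2.02 in the 13 pairs within a class II gene, 1.70 in the 78 pairs from different class II genes, and 1.63 in 30372 pairs within a gene over all genes. The 6 pairs of H2-Aa ran from 1.20 to 3.42. These pairs and that of H2-DMa are of genes chosen with their differences in view, so nothing is read from the higher median within class II genes. Over the 14 probe sets the highest array was 2.10 to 915 times the lowest, with a median of 14.7, beside 15.8 over all probe sets and 4.74 over those with a mean above background. The brightest array was WT array 3 in 4 probe sets, cKO array 3 in 4, and WT array 1, cKO array 1 and cKO array 2 in 2 each. The dimmest was WT array 3 in 4, cKO array 2 in 4, cKO array 1 in 3, WT array 2 in 2 and cKO array 3 in 1. No array was thus the brightest or the dimmest throughout.

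**Figure D3:**
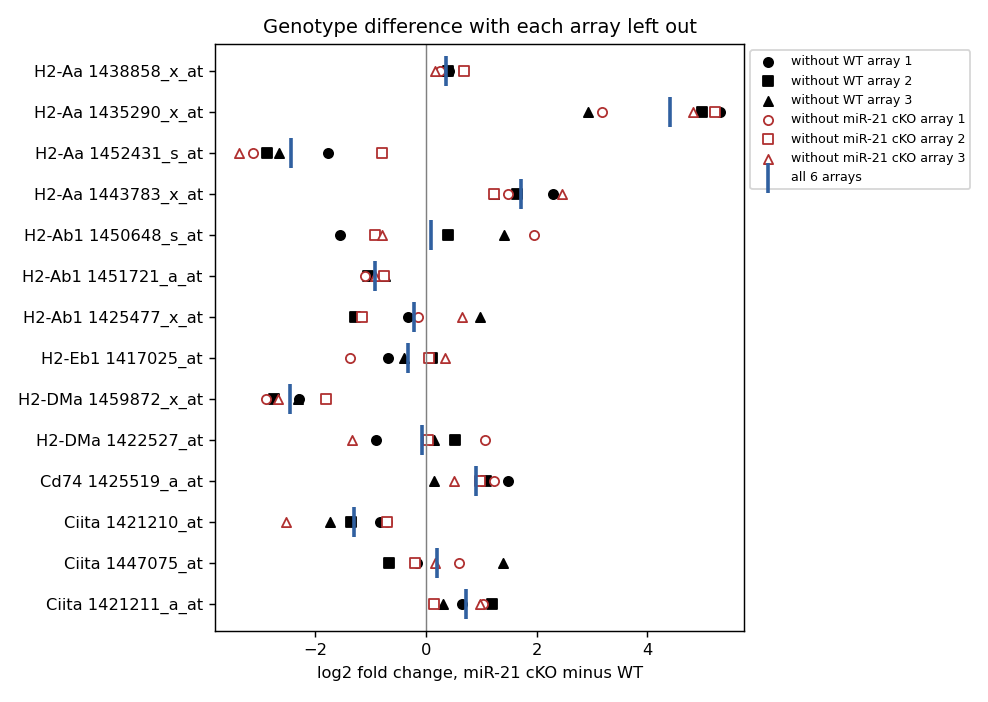
Log2 fold change, miR-21 cKO minus WT, of the 14 class II probe sets with each array left out in turn (marks as in the legend) and with all 6 arrays (blue bars). H2-Aa 1435290_x_at stays between 2.92 and 5.31, and H2-Ab1 1450648_s_at moves from -1.55 to 1.96.

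Taken to 1 value per gene by the probe set with the highest mean, the differences were 0.37 (SE 0.67) for H2-Aa, 0.08 (SE 0.85) for H2-Ab1, -0.32 (SE 1.49) for H2-Eb1, -2.45 (SE 1.13) for H2-DMa, 0.91 (SE 0.92) for Cd74 and -1.31 (SE 1.47) for Ciita. Only H2-DMa was called of the 6. With the mean of a gene's probe sets H2-Aa was at 1.02, H2-Ab1 at -0.35, H2-DMa at -1.27 and Ciita at -0.13, and none of the 6 was called. Without x_at and s_at probe sets H2-DMa was at -0.08 and H2-Ab1 at -0.93, and H2-Aa had no probe set left. Which probe set stands for the gene thus decided the call of H2-DMa and the size for H2-Aa.

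The other class II genes were measured by 9 probe sets of 5 genes, and none was called. H2-DMb2, a beta chain of H2-DM and the partner of H2-DMa, had 3050, 718 and 2343 in WT and 1469, 2126 and 2137 in miR-21 cKO with 1419744_at, a difference of 0.13 (SE 0.81). The genotypes overlapped, unlike those of H2-DMa 1459872_x_at. Probe set 1449580_s_at, which the annotation gives to both H2-DMb1 and H2-DMb2 and which is counted for neither, had 120, 1154 and 1074 on WT and 275, 1750 and 1896 on cKO arrays (0.87, SE 1.09). Another probe set given to both, 1418638_at, was below background on every array, at -0.72 (SE 1.41). H2-Ea, the alpha chain of I-E, is not transcribed in the haplotype of C57BL/6 mice because of a deletion in its promoter. C57BL/6 is the strain named in the methods for mice in general, and the background of the miR-21 line is not stated. Probe set 1422891_at of H2-Ea had 961, 725 and 208 in WT and 1836, 1960 and 597 in cKO, above background on 2 arrays, with overlapping genotypes and a difference of 1.30 (SE 1.04). The other H2-Ea probe sets were at -1.59 (1426202_at) and 1.30 (1422892_s_at), also with overlapping genotypes. H2-Eb2, a beta chain gene next to H2-Eb1 that was named after its values were seen, had 2648, 533 and 173 on WT and 1641, 1023 and 228 on cKO arrays (0.22, SE 1.11). The median difference of the 9 was 0.13.

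The factors at class II promoters and the interferon-gamma pathway that induces Ciita were measured by 29 probe sets of 13 genes, of which none was called and whose median difference was -0.02. Rfx5, a subunit of the X box factor RFX, had 2019, 1416 and 202 in WT and 1976, 1511 and 1336 in miR-21 cKO, a difference of 0.93 (SE 0.94) with overlapping genotypes. Nfya 1427808_at, which reads a subunit of the Y box factor NF-Y, had 503, 489 and 431 on WT and 1069, 1028 and 1631 on cKO arrays. The genotypes did not overlap, but at 1.36 (SE 1.07 from the trend, 0.22 from its own arrays) it was not called, and the other probe sets of Nfya were at -0.34 and -1.31.

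Proteases and other proteins of the endosome that cut the invariant chain, prepare peptides or recycle class II were measured by 15 probe sets of 8 genes. Of these 1 was called higher, 1444987_at of the protease Ctsb, with 122, 33.4 and 346 in WT and 1172, 709 and 893 in miR-21 cKO (3.01, SE 1.38). The genotypes did not overlap, but only cKO array 1 was above background, and with background as the lowest value the ratio was 1.04-fold. The other 4 Ctsb probe sets were at 1.00, 1.84, -0.72 and -1.48 and not called. Marchf1, the ubiquitin ligase that sends class II to degradation, had 432, 1573 and 1157 on WT and 896, 511 and 269 on cKO arrays with 1431367_at (-0.89, SE 1.11). Ctss, the protease known for the last cuts of the invariant chain, was singled out after its values were seen and had 1462, 143 and 372 on WT and 416, 559 and 1182 on cKO arrays (0.61, SE 1.20). The median of the 15 was -0.15.

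Co-stimulatory ligands, which antigen-presenting cells show together with class II, were measured by 12 probe sets of 5 genes with none called and a median of -0.02. Cd80 1451950_a_at had 3245, 1001 and 2446 in WT and 1724, 1376 and 420.3 in miR-21 cKO (-0.998, SE 0.88), and Cd86 1449858_at had 269, 626 and 2127 on WT and 1000, 522 and 122 on cKO arrays (-0.83, SE 1.19). In both of these probe sets the genotypes overlapped. The other Cd86 probe set, 1420404_at, went the other way at 2.86 (SE 1.50) and was not called. It had 37.5, 83.0 and 71.2 on WT and 1274, 556 and 119 on cKO arrays, with no overlap. The other Cd80 probe sets were at 0.21, 0.24 and -1.46.

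Class I presentation, the counterpart that shows peptides from inside the cell to CD8+ T cells, was measured by 37 probe sets of 14 genes with 1 called higher and a median of 0.20. The call was 1423423_at of Pdia3, a chaperone of the peptide-loading complex, at 51.0, 375 and 40.1 in WT and 783, 847 and 539 in miR-21 cKO (2.95, SE 1.46), with no overlap. All these values were below background, and the other probe set of Pdia3 was at -0.66. H2-K1, a class I heavy chain, had 4740, 1770 and 1344 on WT and 3414, 3682 and 3720 on cKO arrays with 1450534_x_at (0.68, SE 0.70). Its other probe sets were at 0.27, 0.98 and -2.52, the last, 1451931_x_at, with 501, 569 and 650 on WT and 141, 91.3 and 76.8 on cKO arrays, all below background, with no overlap and not called. Tap1, a subunit of the peptide transporter, had 3205, 1598 and 497 on WT and 2526, 2944 and 2329 on cKO arrays with 1416016_at (0.92, SE 0.80), and its other probe sets were at 0.70, -1.14 and -1.47. Over the 5 lists together the calls were 2 probe sets higher and none lower, single probe sets in each case.

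**Figure D4:**
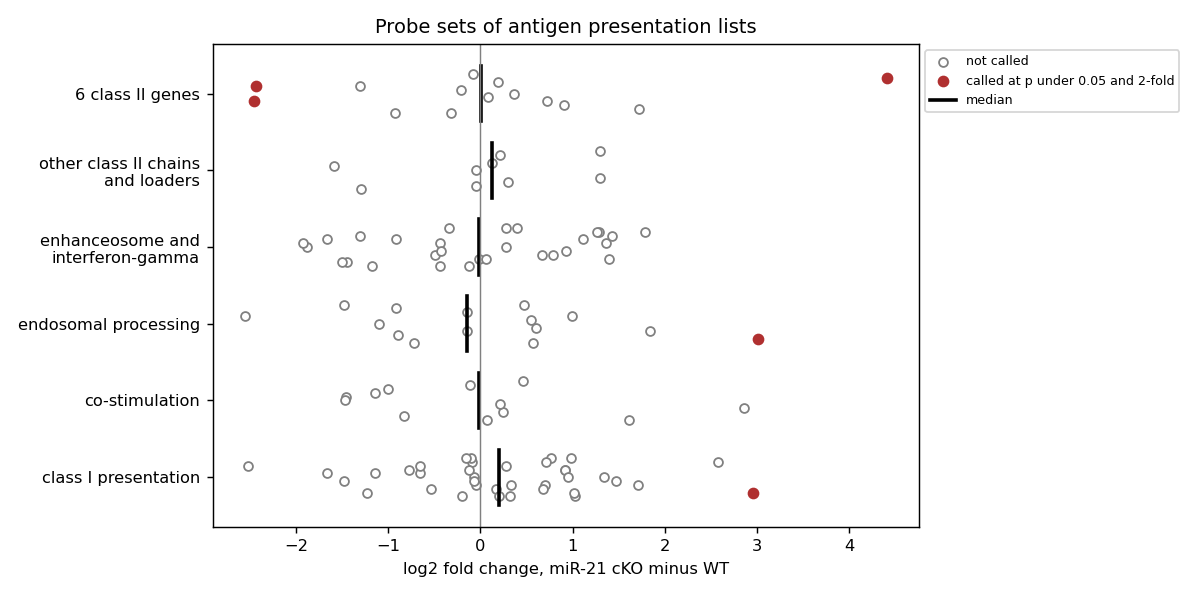
Log2 fold change, miR-21 cKO minus WT, of each probe set (points) of the 6 class II genes and of 5 related lists, with called probe sets filled in red and each list's median as a black bar. The medians lie between -0.15 and 0.20. Of the 5 called probe sets 3 are among the 14 of class II (21.4%), beside 4.51% called of all probe sets. The class II genes were chosen with differences of H2-Aa and H2-DMa in view, so nothing is read from this count.

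Markers of the sorted cell and of other cells that carry class II were read beside these values. Of 17 macrophage probe sets 2 (11.8%) were called higher, beside 2.11% of all, and these were Cd14 and Itgam, which encodes the CD11b of the sort. Cd14 had 783, 158 and 116 on WT and 1061, 455 and 5067 on cKO arrays (2.47, SE 1.17). Itgam had 157, 45.7 and 985 on WT and 1016, 983 and 1296 on cKO arrays (2.51, SE 1.25). In both the genotypes overlapped, and Student's t test called neither. With background as the lowest value the ratio was 1.71-fold for Cd14 and 1.08-fold for Itgam. Adgre1, which encodes the F4/80 of the sort, had 2237, 2559 and 1979 in WT and 2095, 96.9 and 2821 in miR-21 cKO. On cKO array 2, the low one for Adgre1, 4 of the 14 class II probe sets had their lowest value, among them both that were called lower, and Itgam was at 983. The 2 with their highest value there, H2-Aa 1443783_x_at and Ciita 1421211_a_at, were below background on every array. Summed over the macrophage markers' brightest probe sets, signals were 10970 to 16150 on WT and 6262 to 31110 on cKO arrays. Dendritic cell markers, of cells rich in class II, summed to 2385 to 5691 on WT and 3247 to 5817 on cKO arrays, with none of 12 probe sets called and no gene with a mean above background. Without overlap among them was 1, Itgax 1419128_at, which encodes CD11c and was singled out after its values were seen. It had 341, 367 and 389 on WT and 54.3, 102 and 58.1 on cKO arrays, all below background. The difference was -2.41 (SE 1.49 from the trend, 0.29 from its own arrays). Student's t test on the log2 values called it, and limma did not. B cell markers summed to 4927 to 7676 on WT and 4459 to 7106 on cKO arrays, with 1 of 11 probe sets (9.09%) called higher. It was Cd22 1419769_at, a B cell lectin, at 82.9, 28.0 and 39.5 on WT and 789, 296 and 124 on cKO arrays (2.77, SE 1.39), all below background. None of the 11 T cell and none of the 17 glial probe sets was called. Of 14 sensory neuron probe sets 2 (14.3%) were called higher, Gal (3.84) and Nefl (2.97), and that list summed to 7537 to 8701 on WT and 11750 to 19450 on cKO arrays, with no overlap. The part of other cells in the class II values was not tested.

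By the smallest mean absolute difference over the 6 arrays, after centring, the probe sets most like Cd74 among 1770 of other single genes above background were those of Cdh15 (0.14), Crb3 (0.21) and Golga2 (0.22), where the median candidate was at 0.98. Those most like H2-Aa 1438858_x_at were of Mafk (0.14), Gpr135 (0.15) and Qpctl (0.15), with a median of 0.70. None of the 6 class II genes could appear here, since they were left out of the candidates, while other class II genes such as H2-DMb2 were not left out.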

How the data were processed

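RNA of the sorted macrophages was amplified (WT Pico kit) for Affymetrix Mouse 430V2 arrays. The deposited values are linear intensity values per probe set, MAS5 signals that the authors made in Expression Console (MAS5 version not given in the sources used here). Precision is limited by the number of arrays, 3 per group. After removal of 64 Affymetrix controls from 45101 probe sets, 45037 were tested on log2 signals with no pseudocount and no filter, in limma 3.58.1 (R 4.3.3; lmFit and eBayes with an intensity trend, Benjamini-Hochberg adjustment). The prior degrees of freedom were infinite, so SEs came from the trend. The fit was run on simulated data with normal noise whose spread followed brightness, as the trend assumes. That run could not show how the fit treats probe sets whose own spread departs from the trend. Symbols came from the platform annotation, 34741 of them updated through RefSeq. Genotypes came from the labels. Members, lists and tests were chosen with earlier results of these data known. Named genes were all members, every called list gene and the 2 genes of each pathway list with the highest mean; others are marked in the text. Alternatives covered scaling, floor, filters, variance model, array weights, replicate block, Student's t test, probe set summary and leaving out each array. Over all probe sets the deviations of same-numbered arrays had correlations of -0.02, -0.02 and -0.03. As only 4.95% of probe sets had a mean above background, this cannot exclude that same-numbered pools were handled together. Nothing in the methods pairs the arrays, and their numbers are used here as names. Figures used matplotlib 3.10.9.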

Additional observations from a re-analysis of the deposited data

How the results depend on the processing

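With all 45037 probe sets, 950 were called higher and 1081 lower, and of the class II probe sets 1 higher and 2 lower. The whole-table counts were 441 higher and 530 lower with a filter at the median level and 34 and 49 with a filter at the Olfr background, in both cases with fewer probe sets tested. Of the class II probe sets 1 was called lower with signals floored at the 25th percentile (94.3), 0 with the Olfr filter, which leaves H2-DMa out, 0 without the intensity trend in eBayes, and by Student's t test 0 higher and 1 lower. The cause was not tested. Quantile normalization, median centring, robust eBayes and array weights left the class II counts at 1 higher and 2 lower. With the replicate block the counts were 901 higher and 1034 lower over all probe sets and again 1 and 2 in class II, with the same 3 class II probe sets called. The block was not run for the related and marker lists. Leaving out 1 array gave 1 to 2 class II probe sets higher and 0 to 2 lower, and over all probe sets 801 to 969 higher and 797 to 1178 lower. The arrays that moved the class II counts were WT 1 and WT 3 (1 lower each), cKO 1 (2 higher) and cKO 2 (0 lower). Without WT 1 the lower call was H2-Ab1 1450648_s_at, and H2-Aa 1452431_s_at and H2-DMa 1459872_x_at were no longer called. Without cKO 1 the added higher call was the same H2-Ab1 probe set. None of the 3 called class II probe sets changed sign under these alternatives. The adjusted p of H2-Aa 1435290_x_at was under 0.05 in 6 of 10 alternatives on all arrays and in 4 of 6 with an array left out. It was not under 0.05 with the 25th percentile floor, the Olfr filter, eBayes without the trend or Student's t test. H2-DMa as a gene was called only by its brightest probe set, and H2-Aa could not be given without x_at and s_at probe sets. Depth here is signal over background: 5 of 14 class II probe sets, among them those of H2-Eb1 and Ciita, had no array above it, so their differences are within the range of background signals.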
